A study of Mus musculus with 2 samples.

Results

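The collagen genes were taken as the GENCODE M21 protein-coding genes of the mouse whose symbol is Col, a number, the letter a and a number. The rule found 44 genes among 21728 of the autosomes and X. They were grouped by the textbook types of their protein into 11 fibrillar, 9 basement membrane, 6 beaded filament, 9 fibril-associated, 3 short-chain network and 4 transmembrane collagens, with 2 left unclassed (Col26a1 and Col28a1).

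Open chromatin was measured by DNase-seq, in which the enzyme DNase I cuts accessible DNA in nuclei and the cut ends are sequenced. There was 1 group of 2 libraries, replicates 1 and 2, from ovary tissue of adult female B6CASTF1/J mice aged 18 to 20 months. B6CASTF1/J animals are F1 hybrids of C57BL/6 and CAST mice. The labels give the libraries separate biosample entries and the same donor entry, and whether 1 animal or several were sampled is unknown. Spread between replicates may therefore be technical, and neither a younger ovary nor another tissue was available for comparison. Ovary tissue mixes many cell types, so fewer cells of a type and less open chromatin per cell cannot be told apart.

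Collagens are proteins of the extracellular matrix in which 3 chains wind into a triple helix. Fibrillar collagens such as types I and III form the tensile fibres of the ovarian stroma and capsule, and type IV forms the sheet-like network of basement membranes, which surround follicles and blood vessels. Type VI forms beaded microfilaments near cells, fibril-associated collagens decorate the fibres, and transmembrane collagens sit in the cell membrane. In the type IV genes, neighbouring genes on opposite strands start close to each other and run in opposite directions, an arrangement called head-to-head. A start at which DNase I cuts densely is called open here, and openness is no measure of how much RNA is made.

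The sequences printed here are the sites on which the results turn. They comprise starts shared by neighbouring genes, the strongest starts of the type IV and fibrillar classes, 3 sites of Col1a1, an unusually placed start and the strongest intronic site of a gene with a closed start. They are the mouse reference (mm10, GRCm38.p6, from RefSeq), printed 5′ to 3′ on the + strand, which is the strand of the first gene named. Capitals mark bases inside footprints of both replicates, short stretches protected from cutting within an open site. Starts were trimmed so that at most 30 bases of annotated untranslated sequence are printed. The first 3 lines are the region between Col4a3 and Col4a4 (chr1:82586820-82586975), the region between Col16a1 and the antisense RNA gene Gm12963 (chr4:130047721-130047869) and the start of Col4a5 (chrX:141475261-141475414).
Col4a3 and Col4a4 start region: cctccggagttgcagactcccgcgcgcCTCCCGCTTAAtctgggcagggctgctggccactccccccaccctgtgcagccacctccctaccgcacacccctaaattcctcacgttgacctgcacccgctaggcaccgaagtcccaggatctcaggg
Col16a1 and Gm12963 start region: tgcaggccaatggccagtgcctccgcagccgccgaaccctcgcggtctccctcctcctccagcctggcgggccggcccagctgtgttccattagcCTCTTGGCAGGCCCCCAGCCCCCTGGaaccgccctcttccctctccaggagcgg
Col4a5 start: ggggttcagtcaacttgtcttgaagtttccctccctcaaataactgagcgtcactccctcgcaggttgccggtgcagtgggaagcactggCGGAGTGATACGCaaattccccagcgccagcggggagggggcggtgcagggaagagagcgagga

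The next 3 lines are Col1a1, which encodes the major chain of type I collagen: its start (chr11:94936061-94936253), a site in its intron 1 (chr11:94937081-94937280) and a site upstream of the gene (chr11:94928861-94929140).
Col1a1 start: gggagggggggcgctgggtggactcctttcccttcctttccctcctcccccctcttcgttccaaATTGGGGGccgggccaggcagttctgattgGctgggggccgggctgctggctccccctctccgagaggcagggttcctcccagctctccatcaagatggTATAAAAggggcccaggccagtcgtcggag
Col1a1 first intron: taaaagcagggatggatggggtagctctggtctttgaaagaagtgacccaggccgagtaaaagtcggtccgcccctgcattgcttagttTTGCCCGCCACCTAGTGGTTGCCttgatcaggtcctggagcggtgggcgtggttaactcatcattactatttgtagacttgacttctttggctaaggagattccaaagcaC
Col1a1 upstream site: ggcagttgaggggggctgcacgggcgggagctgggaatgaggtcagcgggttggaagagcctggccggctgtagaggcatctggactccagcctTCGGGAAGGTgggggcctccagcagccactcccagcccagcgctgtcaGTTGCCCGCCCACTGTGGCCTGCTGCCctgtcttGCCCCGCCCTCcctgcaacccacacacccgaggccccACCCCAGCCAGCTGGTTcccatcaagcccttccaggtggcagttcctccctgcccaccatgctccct

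The last 3 lines are the start of Col5a1 (chr2:27886161-27886440), the start of Col25a1 (chr3:130180621-130180840) and the site in intron 28 of Col15a1 (chr4:47293841-47294140).
Col5a1 start: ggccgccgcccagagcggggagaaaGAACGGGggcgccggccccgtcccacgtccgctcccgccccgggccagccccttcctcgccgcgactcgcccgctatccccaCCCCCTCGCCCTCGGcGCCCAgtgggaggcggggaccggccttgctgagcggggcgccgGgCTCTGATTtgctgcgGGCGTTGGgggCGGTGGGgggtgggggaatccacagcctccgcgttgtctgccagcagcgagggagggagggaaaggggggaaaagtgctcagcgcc
Col25a1 start: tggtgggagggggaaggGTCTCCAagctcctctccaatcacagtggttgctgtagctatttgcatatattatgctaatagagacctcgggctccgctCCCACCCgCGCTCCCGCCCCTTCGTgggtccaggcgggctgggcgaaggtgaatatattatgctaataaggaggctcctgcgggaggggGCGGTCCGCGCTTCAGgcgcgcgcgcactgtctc
Col15a1 intron: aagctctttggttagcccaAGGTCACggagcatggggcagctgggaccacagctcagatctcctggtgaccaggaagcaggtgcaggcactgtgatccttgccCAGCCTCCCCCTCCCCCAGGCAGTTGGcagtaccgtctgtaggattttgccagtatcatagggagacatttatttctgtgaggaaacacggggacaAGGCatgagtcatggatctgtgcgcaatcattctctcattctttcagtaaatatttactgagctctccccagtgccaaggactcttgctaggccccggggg

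A collagen gene was called open at a promoter if the longer peak list of each replicate had a peak within 500 bp of any of its annotated transcript starts. By this rule 28 of the 44 collagen genes (63.6%) were open, against 62.3% of all 21728 protein-coding genes, a share near the background. A further 4 had such a peak in replicate 1 only (Col7a1, Col9a2, Col24a1 and Col8a1) and 12 had none. Many annotated starts lie deep inside these long genes, so the start of the longest protein-coding transcript was also read by itself, and is called the main coding start. At that start 25 of 44 collagen genes (56.8%) were open, against 57.3% of all genes. When only the annotated 5′ end was read, 22 were open, against 56.6% of all genes.

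Open collagen starts had low signals beside those of other genes. Peak strength is given as the authors' signal, a depth-scaled value for each peak, and the strongest peak at a start was taken. The median signal of the 28 open collagen genes was 1.29 in replicate 1 and 1.31 in replicate 2. Over all 13527 open protein-coding genes the medians were 3.96 and 4.06. Ranked among those genes, the collagens had a median percentile of 15.7. Of the 28, only Col6a2, Col25a1, Col16a1 and, at an internal start in replicate 1, Col1a1 exceeded the median of all genes in either replicate.

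**Figure D1:**
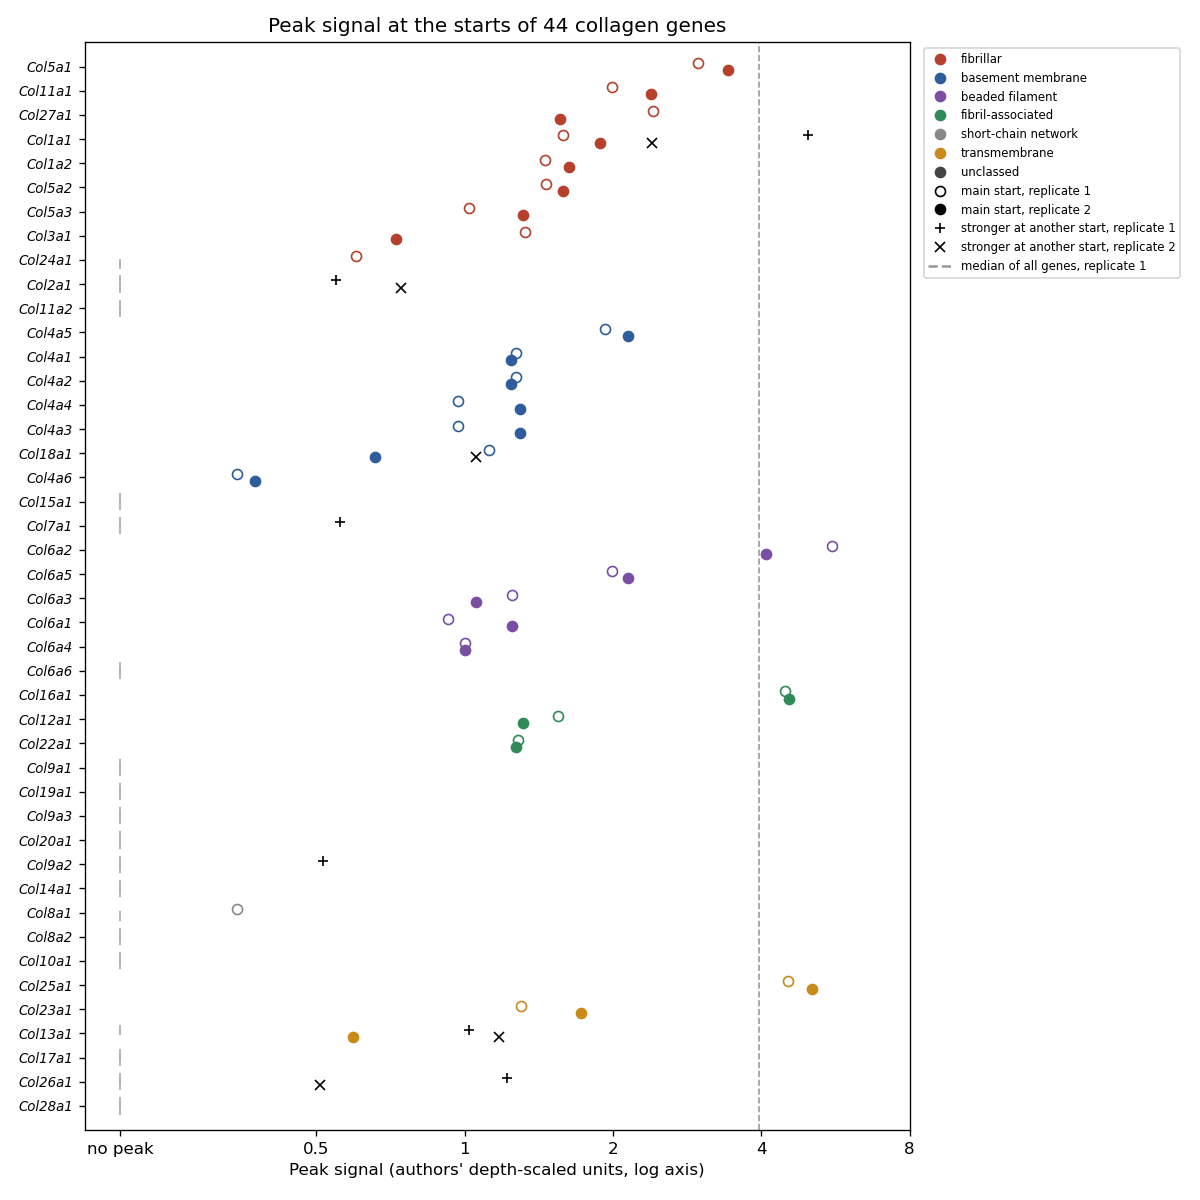
Each line is 1 of the 44 collagen genes, grouped by class. The x axis is the peak signal at its starts in the authors' depth-scaled units on a log scale; circles are the main coding start, crosses a stronger peak at another annotated start, and grey ticks mark a main coding start without a peak in that replicate. Most open starts lie left of the dashed line, the median of all open genes in replicate 1 (3.96).

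Among the fibrillar collagens 9 of 11 had an open promoter (81.8%, against 62.3% of all genes), and 8 at the main coding start (72.7%, against 57.3%). Col5a1, the type V chain that nucleates fibrils, had the strongest main coding start of the class, with 2.98 in replicate 1 and 3.43 in replicate 2 (3.21 ± 0.318, SD, n = 2). Col11a1, its type XI relative, followed with 1.99 and 2.38 (2.19 ± 0.277). Col27a1, a collagen of cartilage, had 2.41 and 1.56 (1.99 ± 0.60), at a main coding start 1431 bp inside the annotated gene. Both values of Col5a1 lay above those of the other two, while the ranges of Col11a1 and Col27a1 overlapped, so the order of these last was not separated by the spread.

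At the main coding start, the genes of types I and III, the bulk fibre collagens, were lower than Col5a1 and Col11a1 in each replicate. Col1a1 and Col1a2 overlapped Col27a1 there. The main coding start of Col1a1 had 1.58 and 1.88 (1.73 ± 0.213), and that of Col1a2, the second type I chain, 1.45 and 1.63 (1.54 ± 0.122). Their ranges over the replicates overlapped, although Col1a1 was the higher of the 2 within each replicate. Col5a2, the partner of Col5a1, had 1.46 and 1.59 (1.53 ± 0.0867), within the range of Col1a2. Col5a3 had 1.02 and 1.31 (1.17 ± 0.205). Col3a1, the type III chain of soft tissues, had 1.32 and 0.727 (1.03 ± 0.422), the largest relative difference between replicates among the fibrillar main coding starts. Its log2 ratio of replicate 2 to replicate 1 was -0.87.

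The remaining fibrillar genes were closed or nearly so at the main coding start. Col24a1 had 0.603 in replicate 1 and no peak in replicate 2. Col11a2 had no start peak in either replicate. Col2a1, the main collagen of cartilage, had no peak at its main coding start in either replicate and counted as open through an annotated start 14.4 kb inside the gene, with 0.549 and 0.743 (0.646 ± 0.137). Without that internal start, 8 fibrillar genes would count.

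Col1a1 carried its strongest start-associated site in intron 1, 957 bp from the main coding start and next to an annotated internal start. It had a signal of 4.97 in replicate 1 and 2.40 in replicate 2 (3.69 ± 1.82). Both values exceeded those of the main coding start, and the log2 ratio of replicate 2 to replicate 1 was -1.05. A site upstream of the gene, at -7.22 kb from the main coding start (chromosome 11, 94928861 to 94929140) had 3.24 and 4.04 (3.64 ± 0.566), and a site downstream of the gene at 22.0 kb had 2.11 and 2.72. The main coding start was thus the weakest of the 4 sites open in both replicates around Col1a1, in each replicate.

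Footprints divided these Col1a1 sites further. In the printed start sequence, the TATAAA at position 164 lay wholly inside footprints of both replicates, as did the ATTGG at position 65, the reverse complement of the CCAAT box bound by NF-Y. Positions are counted from 1 at the 5′ end of each printed sequence. A second ATTGG at position 91 had only 1 of its 5 bases there. In the intron 1 site, all 12 bases of GCCACCTAGTGG at position 96, a match to the word of the insulator protein CTCF on the other strand, were inside footprints of both replicates. In the upstream site, GC boxes (GGGCGG, read here as CCGCCC) at positions 148 and 180 were fully footprinted. A GC box at position 22, read as GGGCGG, was outside the footprints of both replicates. These words and sites were chosen after their values were seen, and a word in a footprint names no bound factor.

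Basement membrane collagens were open at 7 of 9 main coding starts (77.8%, against 57.3% of all genes), and all 6 type IV genes were among them. Col4a5 was the strongest, with 1.93 and 2.15 (2.04 ± 0.157). Col4a1 and Col4a2, which encode the chains found in nearly all basement membranes, shared 1 peak of 1.27 and 1.24 (1.26 ± 0.0195). Col4a3 and Col4a4, whose chains are known from the filter of the kidney, shared 1 peak of 0.969 and 1.30 (1.13 ± 0.232). The ranges of these 2 peaks overlapped, so they did not differ beyond the spread. Col4a6 had only 0.344 and 0.375 (0.360 ± 0.0217), at percentile 0.418 of all open genes, and both values were below those of the other type IV genes.

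The other basement membrane genes varied more. Col18a1, which encodes the precursor of endostatin, had 1.12 and 0.657 (0.888 ± 0.327) at its main coding start. Further peaks lay at internal starts 52.5 kb (0.560 and 0.852) and 77.0 kb (1.10 and 1.06) into the gene, so all 3 of its start regions that held a peak were of similar, low signal. Col15a1, the close relative of Col18a1, had no promoter peak in either replicate. Col7a1, the anchoring fibril collagen of skin, had none at its main coding start and 0.560 at an internal start in replicate 1.

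Type VI genes ranged widely for members of 1 microfilament. Col6a2 had 5.57 and 4.10 (4.83 ± 1.04), the highest of all collagen main coding starts in replicate 1. Col6a1, its neighbour on chromosome 10 and partner in the same protein, had 0.926 and 1.25 (1.09 ± 0.230). All values of Col6a2 were above those of Col6a1. Col6a3, the third chain of the classical type VI molecule, had 1.25 and 1.06 (1.15 ± 0.137), within the range of Col6a1. Of the later-described chains, Col6a5 had 1.99 and 2.15 (2.07 ± 0.112), Col6a4 had 1.00 in each replicate and Col6a6 had none.

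Fibril-associated collagens were open at 3 of 9 genes (33.3%, against 62.3% of all genes). Col16a1 had 4.48 and 4.55 (4.51 ± 0.050), Col12a1 had 1.55 and 1.31 (1.43 ± 0.168) and Col22a1 had 1.28 and 1.27 (1.28 ± 0.00496). Col16a1 stood above both of the others in each replicate. Col9a1 and Col9a3 of the cartilage type IX, Col14a1, Col19a1 and Col20a1 had no promoter peak, and Col9a2 had 0.517 in replicate 1 only. The short-chain network genes Col8a2 and Col10a1, the latter known from hypertrophic cartilage, had none, and Col8a1 had 0.344 in replicate 1 only.

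Transmembrane collagens were open at 3 of 4 genes (75%, against 62.3% of all genes). Col25a1, known from neurons, had 4.53 and 5.06 (4.80 ± 0.377) at a main coding start 49390 bp inside its annotated gene, and no other collagen had a higher promoter signal in replicate 2. Col23a1 had 1.30 and 1.72 (1.51 ± 0.295). Col13a1 was open at 2 internal starts, at 101 kb (1.02 and 0.461) and 113 kb (0.829 and 1.17), and the stronger of them differed between replicates. Its main coding start had 0.594 in replicate 2 only. Col17a1, the hemidesmosome collagen of epithelia, had none. Of the unclassed genes, Col26a1 was open only at an internal start 127 kb into the gene (1.22 and 0.508, 0.862 ± 0.501) and Col28a1 had none.

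With the classes side by side, an open promoter was present in both replicates at 9 of 11 fibrillar, 7 of 9 basement membrane and 12 of 24 other collagen genes. These are 81.8%, 77.8% and 50%, beside 62.3% of all genes. At the main coding start the counts were 8, 7 and 10, or 72.7%, 77.8% and 41.7%, beside 57.3% of all genes. The median signals of the open genes were close: 1.46 and 1.59 for fibrillar, 1.12 and 1.24 for basement membrane and 1.29 and 1.29 for the others, in replicates 1 and 2. Among the basement membrane genes, Col4a1 and Col4a2 shared 1 peak, as did Col4a3 and Col4a4. Each of these peaks was thus counted for 2 genes. Genes are not replicates, so these class counts are a description and were not tested.

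Most closed starts had no listed bases in the base-by-base data, which come from the same libraries as the peaks and are no independent check. The authors' false discovery rate of the cut rate is listed for bases below 0.05. At 16 collagen genes no peak lay at the main coding start in either replicate. None of the 16 had such bases within 500 bp in both replicates, and Col19a1 (18 bases, replicate 1) and Col8a2 (17 bases, replicate 2) had them in 1. Of the 8290 genes of the genome in that state, 0.615% had such bases in both, so their absence was the usual state. The files list only bases below 0.05, so cutting above that level was not readable.

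Head-to-head starts were read where genes on opposite strands had 5′ ends within 1000 bp of each other and faced apart. Collagen genes formed 3 such pairs, and in all 3 a peak of each replicate overlapped the stretch between the starts. At Col4a3 and Col4a4 the peak of replicate 2 ended at 82586900, short of the Col4a3 start. The annotated starts of Col4a1 and Col4a2 on chromosome 8 overlapped by 21 bp (11312805 and 11312826), those of Col4a3 and Col4a4 on chromosome 1 were 72 bp apart (82586849 and 82586921), and those of Col16a1 and Gm12963 on chromosome 4 were 66 bp apart (130047774 and 130047840). The signal of a shared peak cannot be assigned to either gene. Among all 799 head-to-head pairs of protein-coding genes, 92.1% had a shared region between the starts, so an open gap was the usual state.

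The type IV pairs had low signals beside other pairs. All such open pairs had a median of 6.04 in replicate 1 and 6.96 in replicate 2, and 1.77% of them were weaker than Col4a1 and Col4a2 at 1.27 and 1.24. The Col16a1 and Gm12963 peak, at 4.48 and 4.55, was also below both medians. Col4a5 and Col4a6 on the X chromosome start 1309 bp apart, outside the rule, and each had a peak of its own. In this pair the Col4a5 peak was above the Col4a6 peak in each replicate (1.93 against 0.344, and 2.15 against 0.375).

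The printed pair sequences differ in the words found. The Col16a1 and Gm12963 region holds a CCAAT box at position 7 and a GC box at position 124, neither in footprints of both replicates. The printed stretch of the Col4a3 and Col4a4 region, 156 bp of a longer open region, holds none of the 10 words searched. The printed stretch of the Col4a5 start holds 1 GC box at position 129, outside the footprints of both. In the 300 bp promoter windows counted below, Col4a5 also had CCAAT and the CTCF word. The Col4a1 and Col4a2 region is not printed, and both genes had CCAAT and the GC box in those windows.

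Collagen starts were then sorted by their CpG content. The CpG ratio, observed over expected CpG dinucleotides, was counted 500 bp either side of the main coding start; starts with a high ratio belong to CpG islands, which are open in most tissues. The median was 0.444 for collagens and 0.574 for all genes. Of the 31 collagens below the median of all genes, 18 (58.1%) were open at the main coding start, against 23.9% of all genes below it. Of the 13 at or above it, 7 (53.8%) were open, against 90.7% of all genes.

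Open and closed collagens had nearly the same median CpG ratio, 0.447 for the 25 open and 0.442 for the other 19. Genes with a low ratio and an open start included Col3a1 (0.178), Col6a1 (0.216), Col22a1 (0.220) and Col1a1 (0.30). Those with a high ratio and no main coding start open in both replicates were Col15a1 (0.757), Col13a1 (0.747), Col19a1 (0.725), Col8a2 (0.672), Col26a1 (0.603) and Col2a1 (0.602). Among the open high-ratio starts were Col23a1 (0.874), Col5a1 (0.821) and Col4a2 (0.785).

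**Figure D2:**
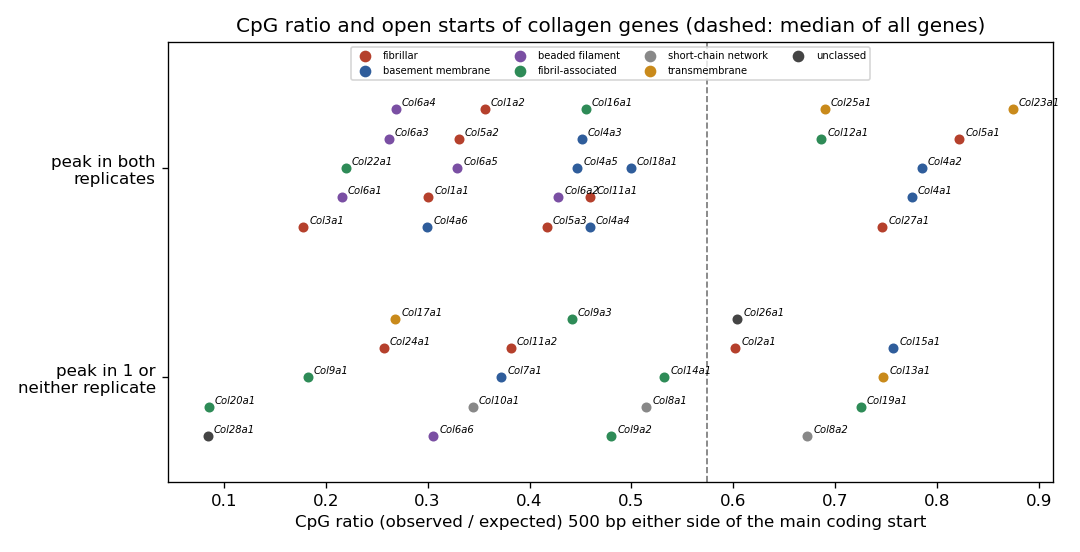
Each point is a collagen gene coloured by class. The x axis is the CpG ratio 500 bp either side of the main coding start, and the rows separate genes with a peak there in both replicates from the rest; vertical offsets only keep the names apart. Open and closed collagens cover similar ranges on both sides of the dashed median of all genes (0.574).

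Promoter words were counted in 300 bp windows, 250 bp before to 50 bp after each start, from RefSeq. The windows matched 35 of the 44 collagen genes, 38 windows in all, and genes without a matched window were not counted. The GC box GGGCGG, bound by Sp1, was in 23 (60.5%) against 48.0% of 20061 windows of all genes. CCAAT was in 13 (34.2% against 37.9%) and TATAAA in 5 (13.2% against 12.1%). AAGGTCA, the word of the NR5A receptors that act in ovarian steroid cells, was in 5 (13.2% against 3.99%), at Col11a1, Col23a1, Col24a1, Col7a1 and Col9a1. The ETS word CCGGAAG was in 0 (against 11.9%), and the AP-1 word TGANTCA in 1 (2.63% against 7.00%). The RUNX word TGTGGT was in 3 (7.90% against 14.6%) and the GATA word AGATAA in 2 (5.26% against 9.42%). The TEAD word GGAATG was in 5 (13.2% against 13.4%) and the CTCF word in 1 (2.63% against 2.40%). Both strands were read, and 5 windows are few. Of the 5 genes with the NR5A word, only Col11a1 and Col23a1 had an open promoter in both replicates.

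Sites away from starts were counted as regions that the longer lists of both replicates cover, in each gene body and 10 kb either side. The collagen windows held 221 such regions, of which 215 were distinct because 6 lay in 2 windows. Of the 215, 34 were placed at a start of the collagen gene itself, 11 at a start of another gene, 11 in exons, 130 in introns and 29 between genes. So 170 lay at no protein-coding start, 19 of them in intron 1. A region in 2 windows was placed by the first of the genes alone. The 2 start regions of Col4a5 were therefore placed under Col4a6, among the 11 at a start of another gene. At least 1 shared region was present at all but Col9a1 and Col10a1, against 78.8% of all protein-coding genes.

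The median number of shared regions was 4 for a collagen gene and 2 for all genes, but collagen genes are long, with a median of 114 kb against 17.4 kb. Per 100 kb of window they had 3.54 pooled, against 4.49 for all genes. By class the pooled density was 3.71 for fibrillar, 3.99 for basement membrane and 3.28 for other collagens, and within the others it was 6.38 for type VI and 2.67 for fibril-associated genes. The median over genes gave another order, with 5.78 for fibrillar, 3.90 for basement membrane and 3.32 for other collagens, against 4.49 for all genes. Col18a1 had the most regions (12), followed by Col27a1 (11), and then by Col15a1, Col4a2, Col6a3 and Col5a1 with 10 each. The densest were Col6a1 with 18.7, Col16a1 with 11.2 and Col1a1 with 10.9 per 100 kb.

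**Figure D3:**
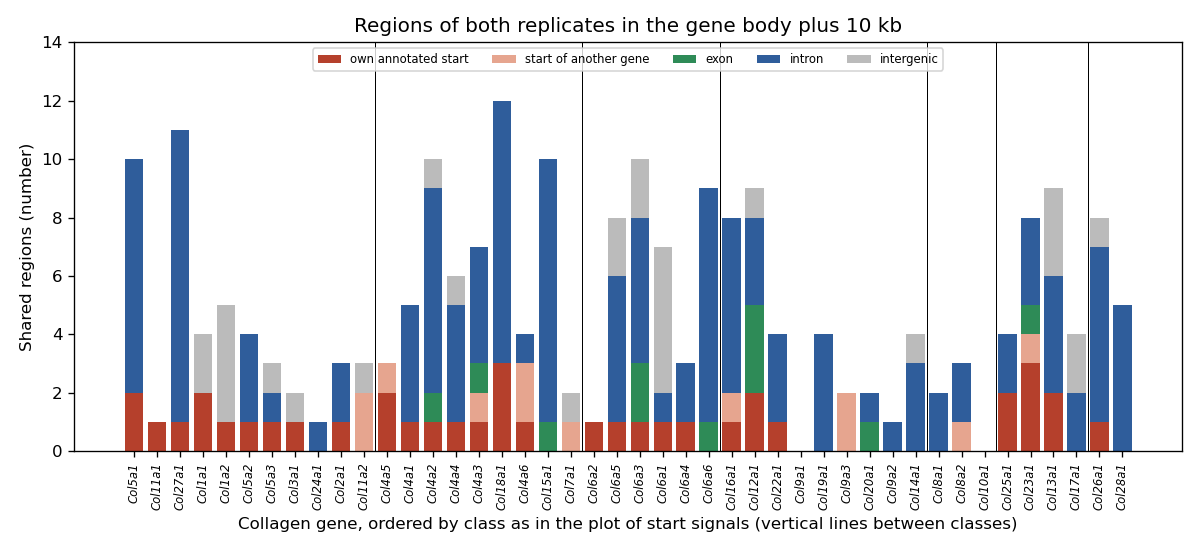
Bars give the number of regions open in both replicates in each collagen gene body and 10 kb either side, stacked by place, with genes grouped by class. Col18a1 is highest at 12, and Col9a1 and Col10a1 have none; blue, the intronic part, makes up 130 of the 215 distinct regions.

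Col15a1 combined a closed start with 10 open regions in its body. It encodes a collagen of the basement membrane zone of muscle and vessels. Its strongest sites were in intron 28, 85.8 kb from the start (3.89 and 4.64, 4.26 ± 0.535), and in exon 39 at 103 kb (3.85 and 4.56, 4.21 ± 0.503). Both exceeded the start of every type IV gene in each replicate. In the printed intron 28 site, AAGGTCA at position 19 had 6 of its 7 bases in footprints of both replicates, and the AP-1 match TGAGTCA at position 205 had none.

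Body sites stronger than the start were also found at other genes. Col18a1 had 5.61 and 2.88 in intron 2 at 35.8 kb, far above its start. Col23a1 had 6.23 and 4.50 (5.37 ± 1.22) in intron 5 at 250 kb, the strongest collagen site away from starts by mean rank. Col2a1 had 2.48 and 2.49 (2.48 ± 0.00675) in intron 16 at 11.6 kb. At Col16a1 the strongest body site by mean rank, in intron 2 at 2.80 kb, had 4.00 and 3.67 (3.84 ± 0.240), below the start in each replicate. A site in its intron 55 had 5.16 and 1.93, above the start in replicate 1 and below it in replicate 2. Col6a6, with no promoter peak, held 9 regions. The strongest was at 134 kb in intron 36 in replicate 1 (3.90 and 2.18) and at 130 kb in intron 35 in replicate 2 (2.38 and 2.94).

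Of the 7 regions of Col6a1, 5 lay upstream of the gene, from -2.38 to -9.04 kb, with signals up to 3.10 in replicate 1 and 2.59 in replicate 2. Only its start and 1 site in intron 1 were in the gene. Col1a2 had 3 regions downstream, the strongest 1.59 and 0.813. Col3a1 had 1 region besides its start, upstream at -7.08 kb, with 0.614 and 0.789. The 3 genes of types I and III thus had between 2 and 5 shared regions each.

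**Figure D4:**
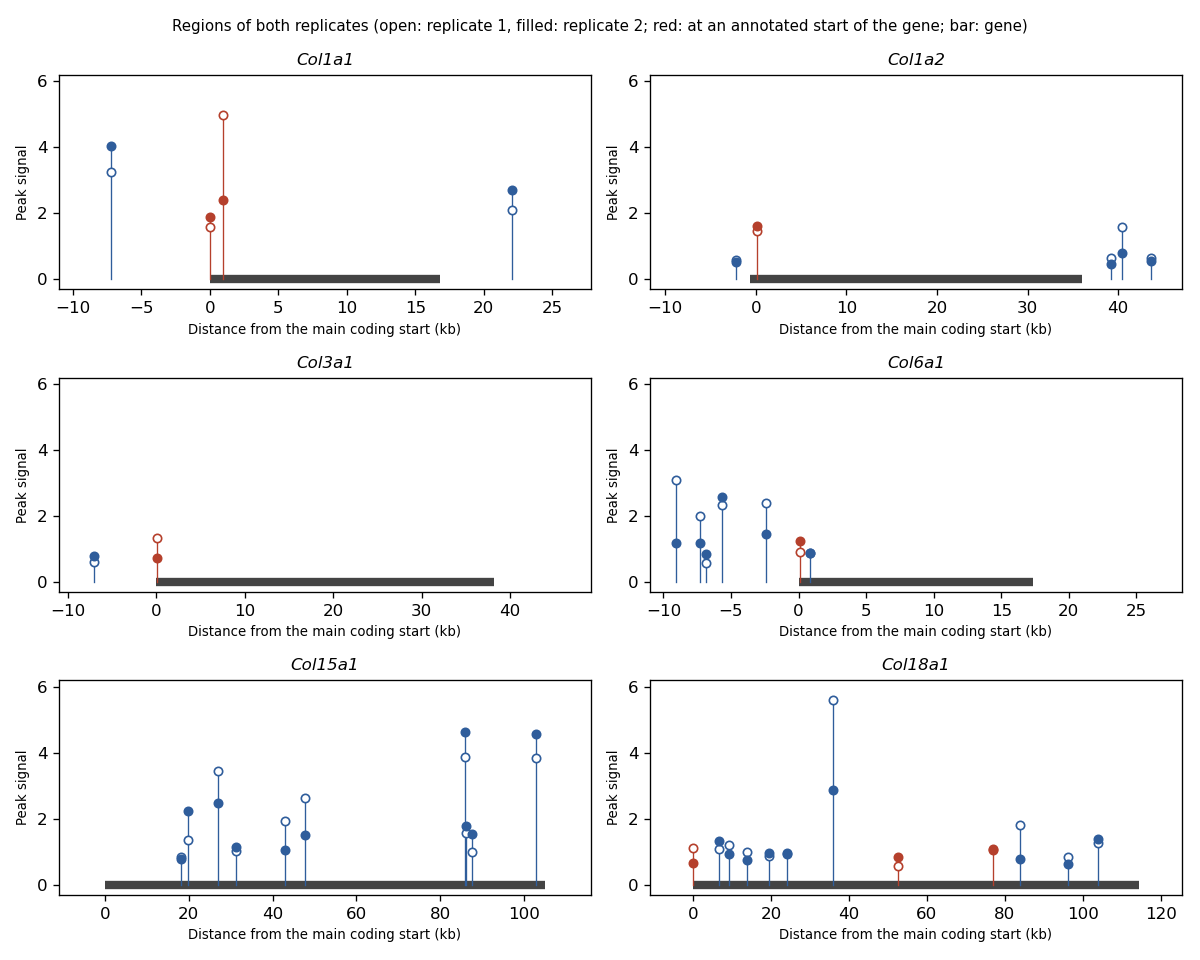
Each panel is 1 gene, with distance from the main coding start in kb on the x axis and peak signal in the authors' units on the y axis; stems are regions open in both replicates, with open circles for replicate 1, filled circles for replicate 2, red at annotated starts of the gene and a dark bar for the gene body. Col15a1 has 10 regions and none at its start, and 5 of the 7 of Col6a1 lie upstream.

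A few regions counted in collagen windows belong to starts of neighbours. The strongest were at Pef1 beside Col16a1 (15.5 and 12.9), Pfkfb4 beside Col7a1 (7.51 and 13.4), Rxrb and Slc39a7 beside Col11a2 (9.63 and 11.7), Adprhl2 beside Col8a2 (9.31 and 6.14), Phykpl beside Col23a1 (8.77 and 9.54) and Mff beside Col4a3 (5.71 and 4.85). All were above every collagen main coding start in replicate 1 and, except Mff, in replicate 2.

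The same words were searched in the central 200 bp of the 170 collagen regions at no start. TGANTCA was in 17.6% against 12.9% of 45492 such regions of the genome. CCAAT was in 25.9% against 21.4%, the RUNX word TGTGGT in 18.8% against 15.7%, and AAGGTCA in 12.4% against 10.6%. The shares were 8.82% against 12.9% for the GATA word AGATAA and 7.65% against 11.5% for the CTCF word. They were 7.06% against 11.5% for the GC box and 0.588% against 1.80% for the ETS word. For the TEAD word they were 14.7% against 13.0%, and for TATAAA 5.88% against 5.17%. These shares are descriptions of 170 regions and were not tested.

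Footprints were about as frequent in collagen regions as elsewhere. Of the 34 regions placed at collagen starts, 28 held at least 1 footprint in replicate 1 and 31 in replicate 2, and of the 170 at no start, 144 and 158. The 34 leave out the 2 start regions of Col4a5. The stronger of these held 2 footprints in replicate 1 and 5 in replicate 2, and the other held 0 in each. The shares over all 64875 shared regions were 83.2% and 88.8%. The 34 start regions held 80 footprints in replicate 1 and 95 in replicate 2, and on average 50.5% of a replicate's footprints overlapped one of the other.

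The replicates differed at collagen genes mainly through regions listed in replicate 1 only. Of 388 regions in collagen windows, 215 (55.4%) were in both lists, 120 in replicate 1 only and 53 in replicate 2 only. Over the genome 57.7% were in both, with 29642 and 17901 in 1 list only. Fibrillar windows had 34 in replicate 1 only and 13 in replicate 2 only, with 47 in both. At Col3a1 the counts were 6 and 0 and at Col1a1 5 and 0, while Col4a1 went the other way with 2 and 8.

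Signals at open starts moved in both directions. Of the 28 open collagens, 12 were lower in replicate 2, against 38.4% of all open genes, and the median log2 ratio of replicate 2 to replicate 1 was 0.11, as for all genes. The lowest ratios were those of Col26a1 (-1.26), Col1a1 at its intron 1 site (-1.05), Col3a1 (-0.87), Col27a1 (-0.63) and Col6a2 (-0.44). They compare the strongest promoter peak of each replicate, which was a different site in each at Col13a1 and Col18a1. At its main coding start Col18a1 had -0.77. Promoter signals of cell type markers in the same libraries are given beside these ratios. The 5 fibroblast markers summed to 5.69 in replicate 1 and 4.61 in replicate 2, but their members moved in both directions. Pdgfra (3.67 and 2.52) and Tcf21 (1.16 and 0.891) were lower in replicate 2, Dcn (0.431 and 0.555) and Dpt (0.431 and 0.641) were higher, and Lum had no peak. The 6 ovary markers summed to 19.5 and 25.9, and each was higher in replicate 2. The part of cell composition in the replicate differences was not tested.

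Markers of other cell types were read the same way, beside the 62.3% of all genes with an open promoter. Ovary markers were open at all 6 genes, with Star (4.50 and 7.15) and Inha (4.19 and 5.86) the strongest. All 5 smooth muscle markers were open (sums 4.65 and 4.71). Of 5 endothelial markers Kdr and Cdh5 were open (together 2.10 and 1.72), Emcn had a peak in replicate 1 only, and Pecam1 and Tek had none. Of 5 cartilage markers Sox9, Comp and Hapln1 were open (together 6.21 and 6.35), Acan had a peak in replicate 1 only and Matn1 none. Of 5 epidermis markers Krt1 was open (0.850 and 0.797), Krt14 had a peak in replicate 2 only, and Krt5, Dsg3 and Trp63 had none. All 5 podocyte markers were open (9.06 and 10.2), including Wt1, which the ovary also expresses. These counts take any annotated start. At the main coding start, 5 ovary, 5 smooth muscle, 3 podocyte, 2 cartilage, 2 endothelial and 0 epidermis markers were open. Of the 5 fibroblast markers 3 were open there, beside 57.3% of all genes.

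Genes listed for collagen folding and modification were mostly open, while the shares of those listed for its processing or as its receptors were nearer that of all genes. Of 49 listed genes, 41 were open at a promoter in both replicates, beside the 62.3% of all genes. Among the 23 genes listed for folding and modification, 22 (95.7%) were open, with medians of 3.65 and 4.03. Only P3h3 had a peak in 1 replicate. The strongest were both subunits of prolyl 4-hydroxylase, which makes the helix stable: P4hb with 12.7 and 20.6 (16.6 ± 5.55) and P4ha1 with 11.3 and 18.6 (14.9 ± 5.16). Both were lower in replicate 1.

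Of 16 genes that trim procollagen and cross-link fibres, 12 (75%) were open, beside 62.3% of all genes, with medians of 1.33 and 1.34. Loxl3, a lysyl oxidase, had 4.67 and 2.96 (3.82 ± 1.21) and Pcolce, an enhancer of procollagen cleavage, had 2.98 and 4.99 (3.98 ± 1.42). Mep1a, Mep1b and Loxl2 had no promoter peak, and Adamts14 had one in replicate 1 only. Of 10 receptors, 7 (70%) were open, beside the same share of all genes. The strongest were Itgb1, the shared integrin chain (6.03 and 7.55, 6.79 ± 1.08), and the kinase Ddr1 (2.96 and 3.59, 3.27 ± 0.443). The platelet receptor Gp6 had none, and Itga10 and Lair1 had one in replicate 1 only.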

How the data were processed

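DNase-seq peaks, footprints and false discovery rates of 2 libraries of aged ovary were used as deposited, on build mm10 per the file headers and labels. Aligner, callers and the mapping of CAST alleles: not given in the sources used here. Peak strength is the authors' depth-scaled signal as deposited. Its step was 0.0108 for replicate 1 and 0.00782 for replicate 2 (100% of values whole within 0.05 of a step), total reads are not stated, and no interval was computed. In the deposited peak lists the p-value and q-value fields hold a placeholder, and the false discovery rates, as deposited, cover only bases below 0.05. Deposited footprints carry 1 constant label (0.01) and were used as positions.

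Peaks (95898 and 83982 in the longer lists) overlapped if they shared at least 1 bp, and regions were merged over both replicates. A gene's window was its body and 10 kb either side. Percentiles rank genes by the mean rank of their promoter signal. Tools were pysam 0.24.0, Matplotlib 3.10.9, pandas 2.3.3, NumPy 2.4.6 and Python 3.11.15, with GENCODE M21 genes, and the promoter and overlap steps were tested on simulated data. With 1 group no test was run. Alternatives were the shorter lists, other starts, windows, flanks and overlaps, and each replicate left out.

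The members and lists were chosen with earlier results of these data known. Full values were to be given for members with a promoter peak in both replicates, pairs, and every fibrillar and type IV gene; for the 2 strongest and the closed genes of other lists; and for the 2 strongest sites away from starts per class and the 3 genes with most or densest regions. The main coding start, the CTCF word, the printed sequences and other genes or sites named were chosen after values were seen. Motif words were matched without mismatch on both strands.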

Additional observations from a re-analysis of the deposited data

How the results depend on the processing

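Of 54 alternative values, 48 met the tolerance, which was 1.5-fold for a count and 0.00953, the SD of the medians of the replicates, for the median signal. The 28 collagen genes open at a promoter became 25 with the shorter peak lists, which lost Col26a1, Col2a1 and Col4a6, 22 at the annotated 5′ end only (fibrillar genes from 9 to 6), 27 with 250 bp and 33 with 2000 bp either side. The median signal of an open collagen gene was 1.27 as the mean of both replicates, 1.43 with the shorter lists, 1.43 at the main coding start and 1.27 to 1.31 from 1 replicate alone. The 221 shared regions in collagen windows became 142 with the shorter lists, 375 with 50 kb either side, 177 without flanks and 193 with a reciprocal overlap of 50%, and numbered 277 to 348 in 1 replicate alone. The shorter lists hold fewer peaks and wider flanks take in more sequence. The 3 head-to-head pairs stayed open under the shorter lists and in each replicate alone. No paired analysis was possible because there was 1 group and no comparison between groups. The depth behind the signal is not given, so a closed start means only that no peak was listed.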
